A study of Owenia fusiformis with 14 samples.

Results

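In blastulae of the annelid *Owenia fusiformis*, 42 genes differed in the balance between their transcripts by a wide margin while their total level stayed within 1.5-fold. The members were found by a rule on the estimated counts. A gene entered if it had at least 2 annotated transcripts and a summed level of at least 10 CPM (counts scaled to the library total) in all 14 libraries, which 1524 of the 27040 genes did. The share of a transcript is its estimated count divided by the summed count of its gene. A gene was kept if, for 1 of its transcripts, the lowest share in one group exceeded the highest share in the other by at least 30 percentage points in a treatment against its own control, with a mean gene CPM changed by less than 1.5-fold. That margin is called the gap here. The shares and totals in the comparison that chose a gene are therefore given as a description, without a test.

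Whole embryos were sequenced as bulk mRNA libraries at the end of treatment, at 6 hours post fertilisation (hpf), with 2 libraries in each of 7 groups. Recombinant BMP4 (rBMP4, a zebrafish protein per the labels) and recombinant Activin A (rActivin A) were each applied from 4 to 6 hpf and compared with mock-treated embryos. DMH1, an inhibitor of BMP type I receptors, was applied at 20 µM from 4 to 6 hpf against 0.2% DMSO, its solvent. SB431542, an inhibitor of the type I receptors of Activin and Nodal, was applied at 40 µM from 3 to 6 hpf against 0.4% DMSO. The sample titles spell this inhibitor SB435421, while the treatment protocol names SB431542, and the doses of the proteins are left out because the sources state them in different units. All embryos were raised in artificial seawater and carried no genetic change. The labels do not say whether the 2 libraries of a group came from separate cultures, so p-values measure the spread between these libraries, which may be technical.

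Many animal genes give rise to several transcripts through alternative splicing and alternative start and end sites, and the balance between them can change without any change in the total. BMP ligands act through receptors that phosphorylate SMAD1/5/8, and Activin and Nodal ligands through related receptors that phosphorylate SMAD2/3, and both branches pattern the axes of bilaterian embryos. Transcripts of one gene share most of their bases, so a program that assigns short reads to transcripts must divide reads that fit several of them, and a share rests on the few reads that fit only one. The deposited tables give the genes as identifiers without names, and a RefSeq table of the species matched 0 of them, so the members are given by identifier only. None of the 6 BMP pathway genes with known identifiers could enter, since 0 of them have several annotated transcripts. The pathway genes *bmp2/4* and *chordin* served as a check of the stage and were detected in all 14 libraries, at 17.2 to 103.6 CPM and at 220 to 898 CPM.

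Libraries held 9416790 to 59916462 estimated counts, with rActivin A replicate 2 the smallest and DMH1 replicate 1 the largest. A member gene had 112 to 27767 estimated counts in a library, with a median of 817. The mean fragment length recorded in the tables was 313 bases in rActivin A replicate 2 and 348 to 371 bases in the 13 other libraries. Of the 1524 genes entered, 127 (8.33%) had a transcript whose shares in the 2 rActivin A replicates lay 30 points or more apart, against 13 to 45 genes in each of the other groups. The rActivin A libraries thus stood apart in the spread of transcript shares, and the shares of the members described below are given for each of the 2 replicates.

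The rule was met by 24 genes (1.57% of those entered) in rActivin A against mock, 11 (0.722%) in DMH1 against 0.2% DMSO, 7 (0.459%) in SB431542 against 0.4% DMSO and 3 (0.197%) in rBMP4 against mock. These 45 switches came from 42 genes, of which 39 met the rule in 1 comparison and 3 in 2 comparisons. Between control groups, which received no ligand or inhibitor, the same rule was met by 15 genes (0.984%) for 0.4% DMSO against mock, 10 (0.656%) for 0.4% DMSO against 0.2% DMSO and 6 (0.394%) for 0.2% DMSO against mock. Over all 21 pairs of groups the count ran from 3 to 26 with a median of 14. The counts of DMH1, SB431542 and rBMP4 against their controls thus lay within the range of the 3 control pairs or below it, while that of rActivin A against mock was above it. With a library left out, the gap is taken over fewer values, and each count rose. rActivin A then gave 109 genes without its replicate 1, 38 without its replicate 2 and 35 without either mock library, DMH1 gave 23 to 30, SB431542 17 to 18 and rBMP4 4 to 8, against 12 to 36 genes in the 3 control pairs treated alike. The count for rActivin A was thus above the control pairs with all libraries and without either rActivin A library, but within their range without a mock library. Of the 25 genes that met the rule in a control pair, 10 were members (40.0% of these genes and 23.8% of the members). These 10 were OFUSG02634, OFUSG02690, OFUSG06676, OFUSG06882, OFUSG06981, OFUSG07116, OFUSG07853, OFUSG16848, OFUSG22189 and OFUSG24637.

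**Figure D1:**
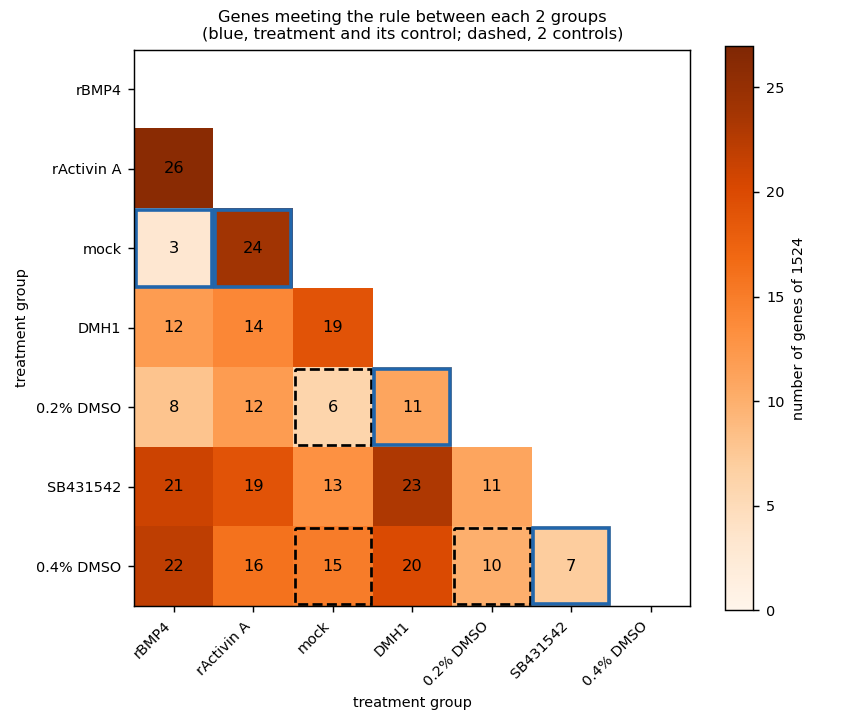
Number of genes, of 1524, that met the rule between each pair of the 7 treatment groups (2 libraries each), with treatments against their own controls outlined in blue and control pairs dashed. The 4 treatment comparisons gave 3, 24, 11 and 7 genes, and the 3 control pairs 6, 15 and 10.

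Gaps ran from 30.04 to 70.9 points with a median of 35.1, and the ratio of mean gene CPM from 0.693 to 1.48 with a median of 0.897. In 24 of the 45 switches the most abundant transcript of the gene was a different one in every library of the treatment than in any library of the control, so the major form itself differed. In the other 21 the same transcript led in at least 1 library of each group. Just inside the limit lay OFUSG01890.2 in rActivin A at 30.1 points, OFUSG08169.2 in DMH1 at 30.04 points, OFUSG09858.1 in SB431542 at 31.0 points and OFUSG26875.2 in rBMP4 at 32.3 points. Just outside lay OFUSG19767.1 at 29.6 points, OFUSG16078.1 at 29.7 points, OFUSG10461.1 at 28.7 points and OFUSG16299.2 at 26.3 points in the same 4 comparisons. A further 9 genes in rActivin A and 3 in DMH1 passed the gap but not the limit on the total, and 0 did in the other comparisons.

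**Figure D2:**
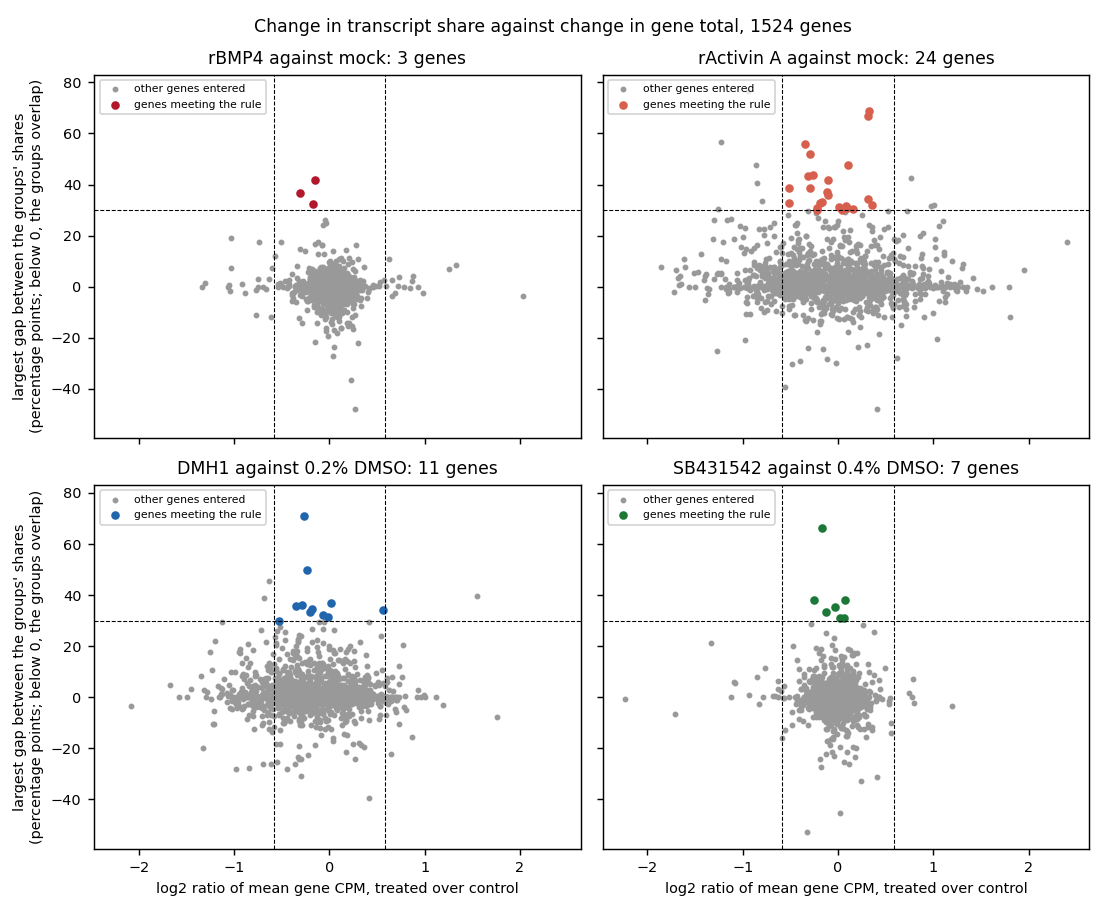
Largest gap between the shares of treatment and control (percentage points, y axis) against the log2 ratio of mean gene CPM (x axis) for the 1524 genes entered, in a panel per comparison; dashed lines mark the 30-point gap and 1.5-fold. Coloured points are the 3, 24, 11 and 7 genes that met the rule, and genes past the gap with a changed total appear only after rActivin A (9) and DMH1 (3).

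The largest gap after rActivin A was that of OFUSG16848, a gene of 2 transcripts that differ by 191 bases. Its shorter form, OFUSG16848.1 (2454 bases), took 86.7% and 100% of the gene in the rActivin A libraries, against 18.0% and 3.77% in mock. The total was 29.4 ± 4.10 CPM in rActivin A and 23.5 ± 2.24 CPM in mock (SD, n = 2 each). In the libraries that the rule did not use, the same form held 35.4% and 16.0% in rBMP4 but at least 92.2% in all 8 libraries of DMH1, 0.2% DMSO, SB431542 and 0.4% DMSO. Mock and rBMP4 were thus the only groups in which the longer form, OFUSG16848.2, prevailed, and the gene also met the rule in 0.2% DMSO and in 0.4% DMSO against mock.

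OFUSG05254 was left with a single form after rActivin A. OFUSG05254.2 (3347 bases) held 99.9% and 100% in rActivin A against 33.2% and 28.8% in mock, with a total of 56.9 ± 1.97 and 45.9 ± 1.86 CPM (SD, n = 2 each). OFUSG05254.1, which is 23 bases longer, was left with less than 1 estimated count in each rActivin A library, against 779 and 774 in mock. DMH1 showed the same single form in both replicates, whereas the controls in 0.2% DMSO differed between themselves, at 89.2% and 47.4% for OFUSG05254.2.

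OFUSG17825, with 4 transcripts above 8 kb, lacked its main form after rActivin A, but what took its place differed between the replicates. OFUSG17825.1 had less than 1 estimated count in each rActivin A library, and held 60.7% and 55.9% in mock. In rActivin A replicate 1 OFUSG17825.2 took 100% of the gene, and in replicate 2 OFUSG17825.3 did. A count of 0 would allow up to 0.743% and 1.68% of the gene if every read could tell the forms apart. Since only some can, the true limits here and in the genes below are higher by an unknown amount. The low share of OFUSG17825.1 was thus common to both replicates and the gaining partner was not.

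OFUSG07417 and OFUSG06676 both had more of their shorter form. OFUSG07417.1 (1715 bases, against 1878 for its partner) held 70.0% and 84.5% in rActivin A and 18.0% and 16.1% in mock. In the 10 other libraries it ranged from 20.0% to 80.0%, so the mock level was the low end of the series. OFUSG06676.1 (6171 bases, against 6308) held 71.1% and 93.8% in rActivin A and 23.4% and 19.9% in mock, but elsewhere its replicates lay up to 85.9 points apart, with 100% and 14.1% in SB431542.

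OFUSG06981.3 showed the reverse direction, with 10.8% and 18.5% of the gene in rActivin A against 67.5% and 62.3% in mock, while OFUSG06981.2 held 62.8% and 51.9% in rActivin A against 11.6% and 13.0% in mock. Computed from TPM, which corrects for effective length, the gap of OFUSG06981.3 was 34.8 points in place of 43.8. Here too rBMP4, at 64.2% and 61.4%, lay beside mock, while the 8 libraries of the inhibitor and DMSO groups ranged from 0% to 25.7%. The gene met the rule in 0.2% DMSO and 0.4% DMSO against mock as well.

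In the groups that the rule did not use, rBMP4 lay beside mock and the others were divided. The mean share of the switching transcript in rBMP4 was nearer to rActivin A in 0 of 24 genes and nearer to mock in 24. In 0.4% DMSO it was nearer to rActivin A in 15 and to mock in 9, in SB431542 likewise in 15 and 9, in DMH1 in 14 and 10, and in 0.2% DMSO in 10 and 14. Set against rActivin A replicate 1 alone, 23 of the 24 were nearer to mock in rBMP4 and 8 to 14 in the other groups, and against replicate 2 alone 24 and 9 to 15. Of the 486 genes entered in which a transcript differed by at least 10 points between rActivin A and mock, 88.5% were nearer to mock in rBMP4 and 48.4% to 63.6% in the other groups, so the nearness of rBMP4 to mock was not particular to the members. OFUSG19000.2 is an example, with 53.4% and 59.96% in rActivin A and 14.6% and 6.38% in mock, and with 14.1% and 9.17% in rBMP4 but 59.6% to 61.7% in the 4 libraries of SB431542 and 0.4% DMSO. In DMH1 it held 30.5% and 53.1%, and in 0.2% DMSO 30.4% and 44.2%. OFUSG07116.1 held 70.2% and 81.9% in rActivin A and 33.2% and 27.9% in mock, with 28.0% and 37.1% in rBMP4 and 75.3% to 81.5% in SB431542 and 0.4% DMSO. Its shares in DMH1, at 51.7% and 40.4%, and in 0.2% DMSO, at 38.7% and 45.6%, were nearer to mock. Both genes were chosen after their values were seen.

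Other members were closer to a difference of rActivin A alone. OFUSG11791.2, of a gene at 287 ± 1.42 CPM in rActivin A and 323 ± 13.1 CPM in mock (SD, n = 2 each), held 64.2% and 68.9% in rActivin A against 31.1% and 25.3% in mock, and 23.8% to 52.7% in the 10 libraries outside the comparison. OFUSG24637.1 held 3.20% and 13.9% in rActivin A against 44.9% and 49.1% in mock, and 33.8% to 88.0% in the others, and it was the only 1 of the 24 whose 10 other libraries all lay on the side of the control. Both were chosen after their values were seen.

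The remaining rActivin A genes are given by kind, with the values of some of them, again chosen after they were seen. Single forms in both rActivin A libraries, at 100%, were found for OFUSG22189.1, against 56.7% and 56.4% in mock, and for OFUSG09314.1, against 55.3% and 65.8% in mock. For OFUSG22189.1 the 4 libraries of SB431542 and 0.4% DMSO also held 85.4% to 100%, and OFUSG09314.1 held 32.4% and 25.7% in DMH1.

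A form that was rare in mock, rBMP4 and 0.2% DMSO was that of OFUSG01143.1, with 57.5% and 34.5% in rActivin A against 2.80% and 0.0203% in mock, 0.0298% and 0.00620% in rBMP4, and 0.301% and 3.54% in 0.2% DMSO. It was present in DMH1, at 26.1% and 30.0%, and ranged from 17.4% to 53.3% in SB431542 and 0.4% DMSO. OFUSG01890.2, the member just inside the limit, had close replicates, with 36.1% and 37.9% in rActivin A against 6.05% and 4.31% in mock, from a gene at 115 ± 0.264 CPM in rActivin A and 134 ± 2.15 CPM in mock (SD, n = 2 each). Its 2 transcripts have the same length of 1641 bases.

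The largest difference in length among the rActivin A genes, 825 bases, was that of OFUSG00498, where OFUSG00498.1 (1797 bases) held 85.2% and 68.6% in rActivin A against 37.5% and 32.1% in mock. In OFUSG06195, which has 5 transcripts within 78 bases of each other, OFUSG06195.4 held 46.2% and 72.8% in rActivin A against 3.09% and 7.41% in mock. The other 4 forms of that gene divided the rest differently in the 2 rActivin A libraries, with OFUSG06195.5 at 0% and 22.6%.

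The transcript that gained share after rActivin A was the shorter of the pair in 19 of the 24 genes, the longer in 3 and of equal length in 2. Shorter forms were thus 86.4% of the 22 unequal pairs, against 49.2% of the 1364 unequal pairs among all genes entered and 54.9% of the 435 unequal pairs in genes where a transcript gained at least 10 points. With rActivin A replicate 1 alone the 24 members gave 18 shorter and 4 longer, and with replicate 2 alone, the library of the shortest fragments, 19 and 3. In the 14 genes of 2 transcripts the rule itself fixed this, since both replicates had to differ from mock in the same direction. The likeness of the replicates is thus no independent result. In the other comparisons the gaining form was shorter in 7 and longer in 4 of the DMH1 genes, in 2 and 4 of the SB431542 genes and in 1 and 2 of the rBMP4 genes. Fragment length and depth differed between the rActivin A replicates, and their part in the direction was not tested.

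**Figure D3:**
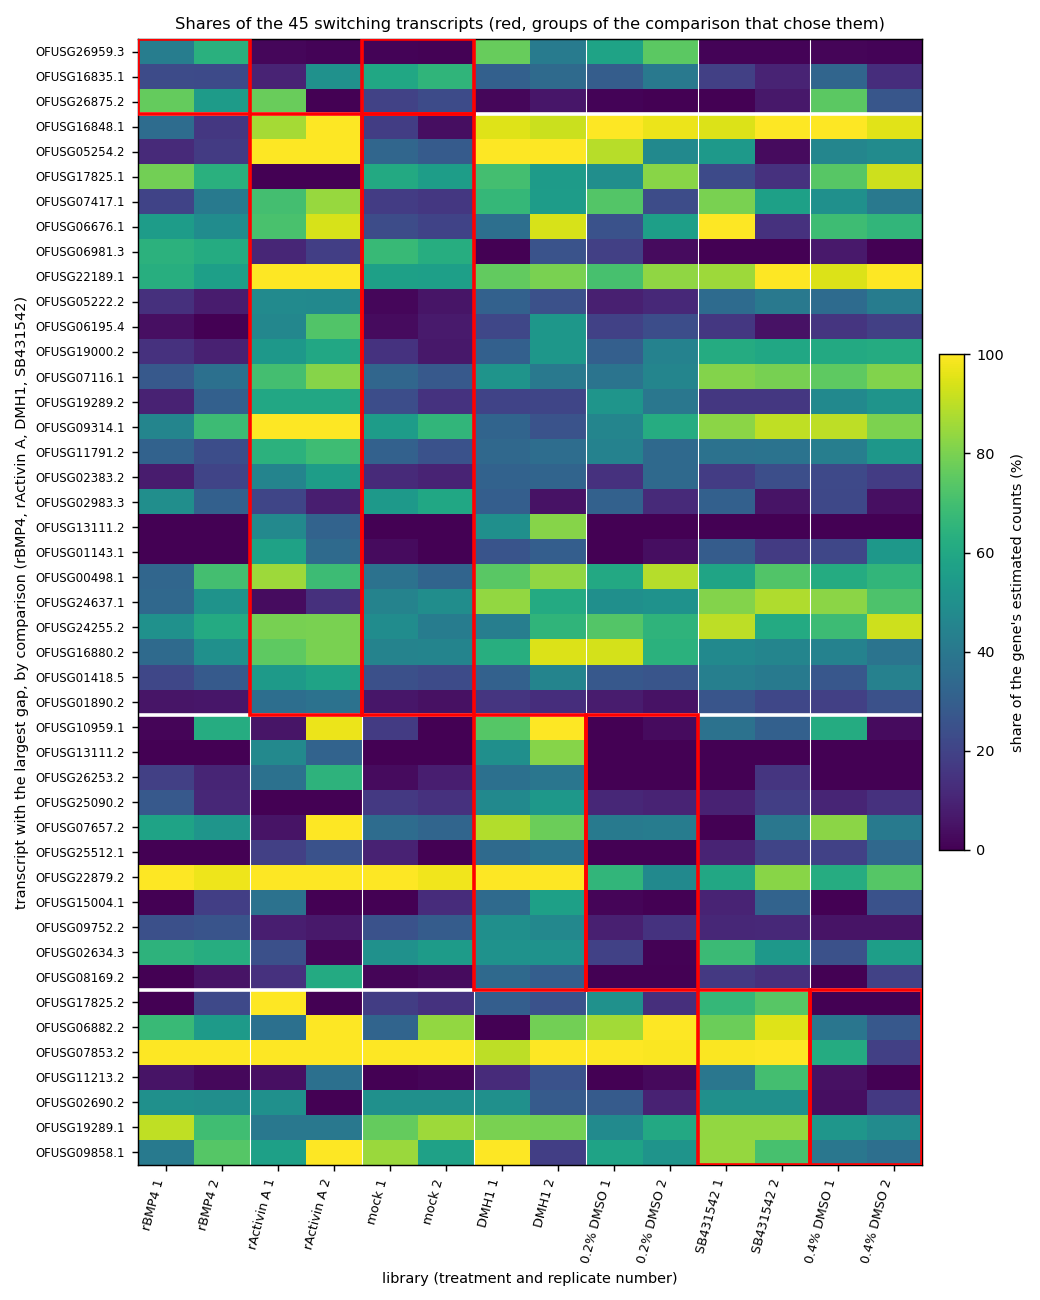
Share of the gene (%, colour) of the switching transcript with the largest gap, for all 45 switches (rows, by comparison and falling gap) in the 14 libraries (columns), with the groups that chose each block outlined in red. In the rActivin A block the rBMP4 columns resemble mock, and OFUSG07853.2 in the lowest block is below 90% in the 2 libraries of 0.4% DMSO only.

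DMH1 gave the largest gap of all members. OFUSG10959.1, the shorter of 2 transcripts of above 9 kb that differ by 30 bases, held 73.8% and 100% in DMH1 against less than 1 estimated count of 512 and 2.88% in 0.2% DMSO, a gap of 70.9 points. The total was 20.6 ± 0.754 CPM in DMH1 and 24.9 ± 2.26 CPM in 0.2% DMSO (SD, n = 2 each). Outside the comparison the form was unstable, with replicates at 1.44% and 62.0% in rBMP4, 5.75% and 96.9% in rActivin A and 61.6% and 2.79% in 0.4% DMSO.

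OFUSG13111 met the rule both in DMH1 and in rActivin A, in the same direction. OFUSG13111.2 (2000 bases, 31 fewer than its partner) held 49.7% and 82.0% in DMH1, and in 0.2% DMSO it had less than 1 estimated count in each library, where a count of 0 allows up to 0.288% and 0.292% if every read of the gene is taken to tell the forms apart. It held 47.2% and 32.0% in rActivin A, and again less than 1 count in each mock library. The 10 libraries outside DMH1 and rActivin A all had less than 1 count of this form, so it was detected in those 4 libraries alone. The total stayed at 41.9 ± 1.38 CPM in DMH1 and 49.5 ± 6.13 CPM in 0.2% DMSO, and at 57.3 ± 4.52 CPM in rActivin A and 44.9 ± 3.35 CPM in mock (SD, n = 2 each). Without DMH1 replicate 1, which holds the lower share, the gap was 82.0 points in place of 49.7.

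OFUSG26253.2 was likewise close to absent from the control, with 36.9% and 39.3% in DMH1 and less than 1 count in both 0.2% DMSO libraries, which allows up to 0.712% and 0.544% on the same assumption. This gene has 5 transcripts, and OFUSG26253.5 remained the main one at 51.0% and 42.7% in DMH1 and 64.5% and 74.1% in 0.2% DMSO. The replicates of DMH1 lay close together for OFUSG26253.2, and rActivin A, at 37.3% and 64.8%, was the only other group above 20% in either library.

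OFUSG25090 and OFUSG09752 were the 2 DMH1 genes whose 10 other libraries all lay on the control side. OFUSG25090.2 (1201 bases, against 1228) held 47.3% and 53.4% in DMH1 and 11.3% and 9.95% in 0.2% DMSO, and 0% to 27.9% elsewhere. OFUSG09752.2 (2599 bases, against 2454) held 49.8% and 46.8% in DMH1 and 8.73% and 14.6% in 0.2% DMSO, and 5.31% to 29.0% elsewhere. OFUSG09752 was also among the most abundant members, at 486 ± 31.4 CPM in DMH1 and 509 ± 74.2 CPM in 0.2% DMSO (SD, n = 2 each), with at least 6235 estimated counts of the gene in every library, of which the reads that tell its forms apart are an unknown part.

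OFUSG07657.2 held 88.4% and 77.5% in DMH1 against 40.9% and 41.8% in 0.2% DMSO, but 5.23% and 100% in the replicates of rActivin A. OFUSG25512.1, the form with the greatest difference in length from its partner among all members (1570 against 2697 bases), held 34.5% and 38.0% in DMH1 and 0.00423% and 0.0996% in 0.2% DMSO. From TPM its gap was 49.96 points in place of 34.4. In the groups outside the comparison this form had less than 1 count in both rBMP4 libraries and reached 33.7% in 0.4% DMSO. The remaining 5 DMH1 genes, OFUSG09752 among them, had gaps of 30.04 to 34.2 points.

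In OFUSG22879 the shares of the 0.2% DMSO control lay apart from those of mock. OFUSG22879.2 held 100% in both DMH1 libraries against 65.8% and 47.4% in 0.2% DMSO, and at least 97.6% in the 6 libraries of rBMP4, rActivin A and mock, but 59.9% to 82.1% in those of SB431542 and 0.4% DMSO. This gene also had the highest ratio of totals, 1.48, with 55.4 ± 0.0368 CPM in DMH1 and 37.4 ± 1.83 CPM in 0.2% DMSO (SD, n = 2 each). OFUSG02634.3 held 50.9% and 51.0% in DMH1 against 19.5% and 0.728% in 0.2% DMSO, close to the 50.6% and 54.9% of mock. The last members, OFUSG15004.1 and OFUSG08169.2, were below 2% in both 0.2% DMSO libraries. OFUSG15004.1 held 34.7% and 56.7% in DMH1, and 37.5% and 0% in the replicates of rActivin A. OFUSG08169.2 held 34.3% and 30.04% in DMH1, and 14.1% and 61.0% in those of rActivin A.

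SB431542 gave 7 genes, of which 6 had the largest gaps by the naming rule. OFUSG17825 recurred here, in the same direction as after rActivin A. OFUSG17825.1 held 22.6% and 14.1% in SB431542 against 73.9% and 92.5% in 0.4% DMSO, and OFUSG17825.2 held 66.6% and 74.0% in SB431542 against 0.00122% and 0.357% in 0.4% DMSO. The total was 32.1 ± 3.30 CPM in SB431542 and 36.1 ± 3.69 CPM in 0.4% DMSO (SD, n = 2 each). This was the second comparison in which OFUSG17825.1 was low, and in the 6 libraries outside both comparisons it held 49.2% to 82.1%.

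OFUSG19289 met the rule in SB431542 and in rActivin A in opposite directions. OFUSG19289.1 (1371 bases) held 83.8% and 83.9% in SB431542 against 52.6% and 48.2% in 0.4% DMSO, and 40.0% and 40.2% in rActivin A against 76.2% and 85.5% in mock. Its partner OFUSG19289.2 (1121 bases) made up the rest in each library. With 10.8 ± 0.584 CPM in SB431542 and 10.3 ± 0.212 CPM in 0.4% DMSO (SD, n = 2 each) this gene lay just above the minimum level, and its lowest count in a library was 112, in rActivin A replicate 2.

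For OFUSG07853 the control stood apart, not the inhibitor. OFUSG07853.2 held 99.4% and 100% in SB431542 and at least 90.2% in all 10 libraries outside the comparison, and 61.5% and 18.9% in 0.4% DMSO. Without 0.4% DMSO replicate 1 its gap was 80.5 points in place of 37.9. The gene met the rule in 0.4% DMSO against mock and against 0.2% DMSO too.

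OFUSG11213.2 held 39.8% and 70.1% in SB431542 against 4.61% and 0.120% in 0.4% DMSO, and without SB431542 replicate 1 the gap was 65.5 points in place of 35.1. Elsewhere it stayed at 36.9% or below. OFUSG06882.2 held 77.4% and 94.9% in SB431542 against 39.2% and 27.4% in 0.4% DMSO, but had replicates more than 50 points apart in rActivin A, DMH1 and mock. The seventh gene, OFUSG09858, had a gap of 31.0 points and a ratio of totals of 1.02.

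OFUSG02690 showed a limit of the shares themselves. Its transcripts OFUSG02690.1 and OFUSG02690.2 both have 1734 bases, and in 8 of the 14 libraries their estimated counts agreed within 0.5 counts. In SB431542 OFUSG02690.2 held 50% of the gene in both libraries, an even split, against 3.56% and 16.5% in 0.4% DMSO, where OFUSG02690.1 held 96.4% and 82.5%. The even split was also found in both libraries of mock and of rBMP4, and in replicate 1 but not replicate 2 of rActivin A and DMH1. None of the other members had such a split in more than 1 library.

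rBMP4 gave 3 genes. OFUSG26959.3 (10184 bases, 42 more than its partner OFUSG26959.2) held 42.5% and 63.4% in rBMP4 against 0.801% and 0.603% in mock, with a total of 31.2 ± 1.13 CPM in rBMP4 and 34.8 ± 5.03 CPM in mock (SD, n = 2 each). In the other groups it was either rare, at 0.790% to 1.75% in the 6 libraries of rActivin A, SB431542 and 0.4% DMSO, or frequent, at 41.5% to 76.8% in the 4 libraries of DMH1 and 0.2% DMSO. The form thus split the groups into 3 with it and 4 without, across ligand, inhibitor and control alike. Without rBMP4 replicate 1 its gap was 62.6 points in place of 41.7.

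OFUSG16835.1 held 22.7% and 22.3% in rBMP4 against 59.5% and 65.5% in mock, and between 9.92% and 50.5% in the 10 other libraries, so mock was again the group at the end of the range. The 3 transcripts of this gene differ by 4 bases or less in length. OFUSG26875.2 held 76.3% and 55.1% in rBMP4 against 19.8% and 22.7% in mock, and its replicates were 77.3% and less than 1 count in rActivin A and 74.7% and 26.9% in 0.4% DMSO. Without rBMP4 replicate 2 the gap of OFUSG26875.2 was 53.6 points in place of 32.3.

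**Figure D4:**
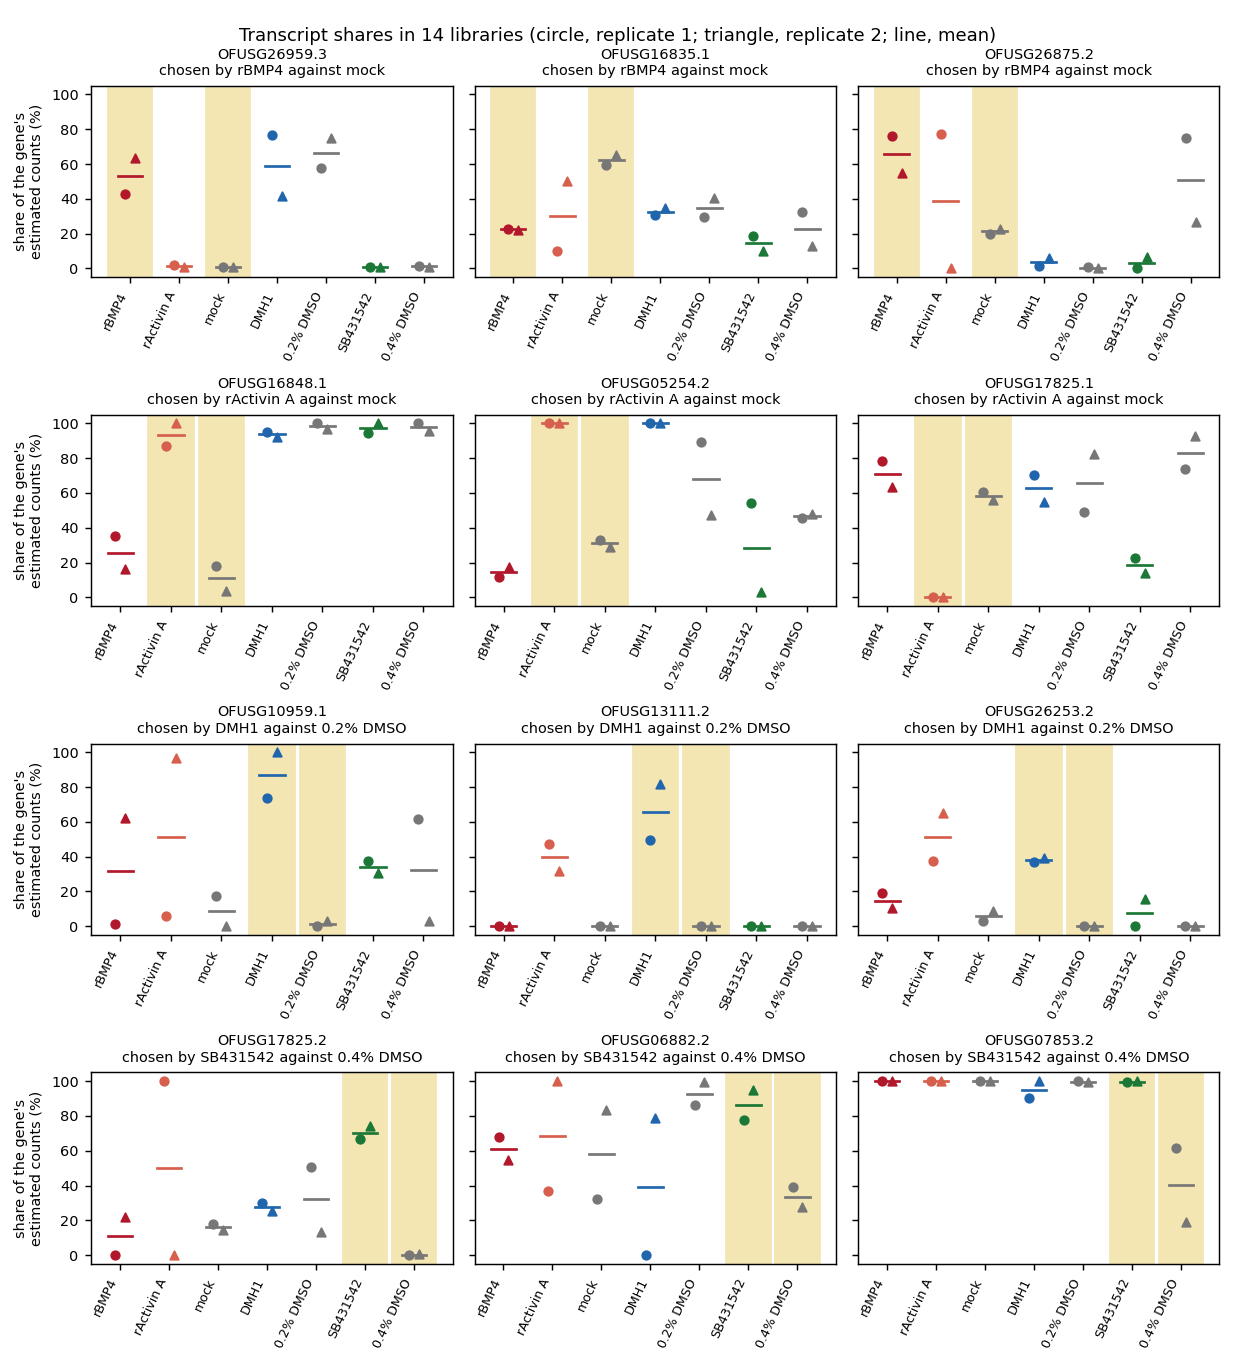
Share of the gene's estimated counts (%) of the switching transcript in each library, for the 3 genes with the largest gaps in each comparison (circle, replicate 1; triangle, replicate 2; line, mean; shaded, groups that chose the gene). OFUSG13111.2 is above 0 in rActivin A and DMH1 only, and OFUSG10959.1 and OFUSG06882.2 have replicates far apart outside the shaded groups.

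The spread between replicates in the groups that the rule did not use gave a measure of how stable these shares were. Among the 24 rActivin A genes, 11 (45.8%) had a transcript whose replicates lay at least 30 points apart in 1 of the 5 other groups, against 8.27% of all genes entered. The count was 5 of 11 (45.5%) for DMH1 against 11.8% of all genes, 5 of 7 (71.4%) for SB431542 against 12.3%, and 3 of 3 for rBMP4 against 13.4%. In each comparison the members were thus more often unstable in other groups than the genes they were drawn from. The members were also less abundant, with a median of 33.8 CPM against 49.5 CPM for all genes entered. Fewer of them had only 2 transcripts (24 of 42, 57.1%, against 74.0%), and their 2 main transcripts differed less in length, by a median of 51.5 bases against 93 bases. The part of level, transcript number and similarity in the spread was not tested.

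**Figure D5:**
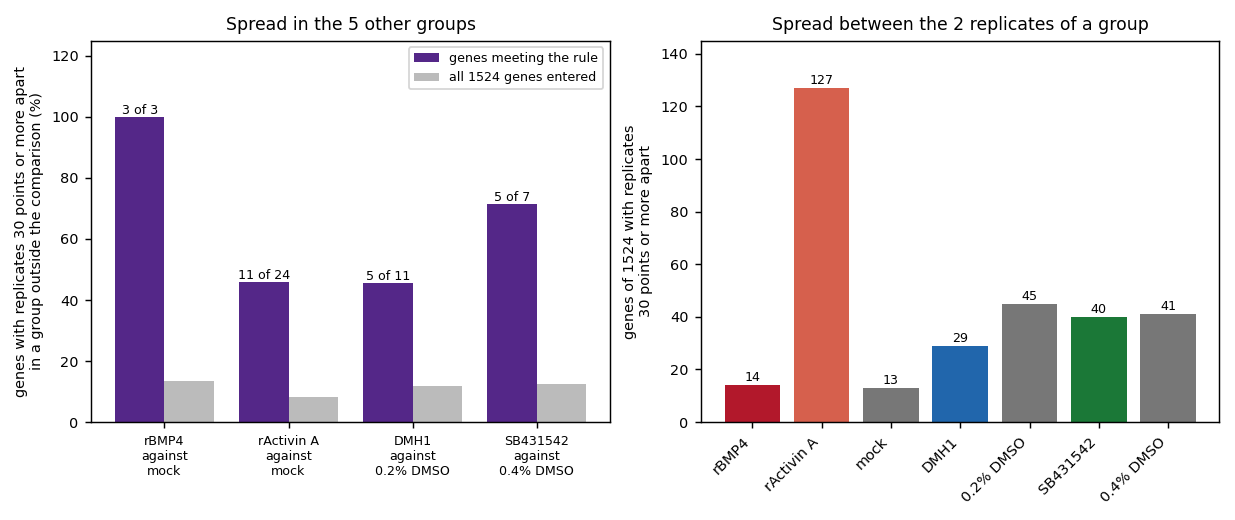
Left, share of genes (%) with a transcript whose 2 replicates lay at least 30 percentage points apart in a group outside the comparison, for the genes that met the rule and for all 1524 genes entered; right, number of the 1524 genes with such replicates in each group. The genes that met the rule stand at 45.5% or more in every comparison against 13.4% or less of all genes, and rActivin A has 127 such genes against 13 to 45 in the other groups.

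Only 3 of the 45 switches had all 10 unused libraries on the side of the control, namely OFUSG24637.1 after rActivin A and OFUSG25090.2 and OFUSG09752.2 after DMH1. In 1, OFUSG07853.2, all 10 lay on the side of the treatment. By group means, 6 switches had all 5 unused groups nearer to the control, 2 had all 5 nearer to the treatment and 37 were mixed. For most members, then, at least 1 other group lay nearer to the treatment than to its control. The same counts over all genes entered were not made. In single unused groups 51.0% to 77.0% of all genes entered were nearer to the control, so the mix is not shown to be particular to the members.

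A test of the members was possible in comparisons whose 2 groups share no library with the comparison that chose them. The rBMP4, rActivin A and SB431542 comparisons were fitted together. A member of one of these tested in another thus had its spread estimated partly from the choosing libraries. Only between DMH1 and these comparisons were the fitted libraries separate. Each transcript was compared with the other transcripts of its gene by the differential usage test of edgeR on a quasi-likelihood fit. The p-values of all transcripts were adjusted by the Benjamini-Hochberg method, and a transcript was called at an adjusted p below 0.05. Over all genes tested, 1.79% had a called transcript in rActivin A against mock, 1.31% in DMH1, 0.128% in SB431542 and 0.0% in rBMP4, where 160 transcripts had an unadjusted p below 0.05. Of the members, 2 of 15 were called in rActivin A against mock, 1 of 30 in DMH1 against 0.2% DMSO, 0 of 35 in SB431542 against 0.4% DMSO and 0 of 15 in rBMP4 against mock. With limma voom in place of edgeR the counts were 3, 1, 1 and 0. Leaving out a library moved these counts to 5 without rActivin A replicate 1 and 3 without mock replicate 1 in rActivin A, to 0 without either DMH1 library in DMH1, to 1 without SB431542 replicate 1 or 0.4% DMSO replicate 2 in SB431542, and to 1 without mock replicate 2 in rBMP4. At an unadjusted p below 0.05, edgeR gave 3 members in SB431542 and 1 in rBMP4. rBMP4 and rActivin A share the mock libraries, so neither comparison was used to test a member that the other had chosen.

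All 3 calls were of a transcript that was lower after treatment. Each of these genes has 2 transcripts, so the partner gained the share that the called form lost. OFUSG09752.2, higher in DMH1, held 8.54% and 7.03% in rActivin A against 25.3% and 29.0% in mock (log2 change in usage -1.25, adjusted p = 1.34e-05, edgeR). It was called under all 9 alternatives, with adjusted p from 1.04e-06 to 0.00130. In SB431542 against 0.4% DMSO the same form held 11.2% and 11.5% against 5.40% and 5.31%, and missed the threshold (log2 change 0.75, adjusted p = 0.0506, edgeR).

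OFUSG25090.2, the other DMH1 form whose 10 other libraries lay on the control side, was not detected in rActivin A, with 0 of 948 and 0 of 533 estimated counts, which allows a share of up to 0.316% and 0.563% if every read is taken to tell its forms apart and more otherwise. In mock it held 16.5% and 14.1%. Usage was lower in rActivin A by the edgeR test (adjusted p = 0.000473, and 1.09e-05 to 0.0181 under the 9 alternatives). No fold change is given because the count is 0 in both rActivin A libraries.

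OFUSG05254.1, chosen by rActivin A, had 2.2 and 1.0 estimated counts in DMH1 against 132 and 917 in 0.2% DMSO, or 10.8% and 52.6% of the gene in 0.2% DMSO. The edgeR test gave an adjusted p of 0.0413, which held in 3 of 9 alternatives and ranged from 0.00232 to 0.575. The call was lost with the replicate number as a block (adjusted p = 0.249), with limma voom (0.575), without a filter on low counts (0.0519), and without DMH1 replicate 1 (0.457), DMH1 replicate 2 (0.463) or 0.2% DMSO replicate 2 (0.105).

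The totals of the members were not fixed in the comparisons that did not choose them. As for usage, the spread of rBMP4, rActivin A and SB431542 members in each other's comparisons was estimated partly from the choosing libraries. By the edgeR quasi-likelihood test on counts summed per gene, 9 of 15 members changed in rActivin A against mock, where 40.8% of all genes did, 9 of 31 in DMH1 (12.9% of all genes), 2 of 35 in SB431542 (1.36%) and 0 of 15 in rBMP4 (2.64%). All genes here include genes below the 10 CPM that each member had to reach. The shares over the genes entered were not computed, so no excess of members can be read from these values. For the members DESeq2 gave 9, 11, 2 and 1, and at an unadjusted p below 0.05 edgeR gave 1 in rBMP4. The count was 2 in rActivin A without mock replicate 2. In DMH1 it was 0 without either DMH1 library, 17 without 0.2% DMSO replicate 1, 16 without 0.2% DMSO replicate 2 and 5 with the replicate number as a block. The 20 calls came from 19 genes, 6 higher and 14 lower, and 0 reversed under an alternative. Of these 20 changes, 10 were smaller than 1.5-fold and 10 were past it. A call is thus not in itself a change past the limit that the rule set on the totals.

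Both calls in SB431542 held in all 10 alternatives. OFUSG00498, whose switch was after rActivin A, had 46.5 and 47.5 CPM in SB431542 against 22.1 and 19.1 CPM in 0.4% DMSO (log2 change 1.18, SE 0.13, adjusted p = 2.10e-05, edgeR). OFUSG16835, whose switch was after rBMP4, had 85.0 and 80.3 CPM in SB431542 against 134.7 and 121.0 CPM in 0.4% DMSO (log2 change -0.64, SE 0.09, adjusted p = 0.000745, edgeR). The largest change in rActivin A was that of OFUSG02634, a DMH1 member, with 12.6 and 14.7 CPM in rActivin A against 28.3 and 32.8 CPM in mock (log2 change -1.20, SE 0.18, adjusted p = 5.01e-05, edgeR). In DMH1 the largest was that of OFUSG06195 (log2 change -1.08, SE 0.16, adjusted p = 0.0141, edgeR), held in 7 of 9 alternatives.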

How the data were processed

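The authors prepared strand-specific libraries and quantified transcripts with Kallisto (version 0.46.2 per the submitters' processing notes, which also name DESeq2 1.26.0). The deposited tables give, per library, an estimated count without normalization and a TPM value, which the authors' tool scales for effective length, beside length and effective length. Kallisto divides reads that fit several transcripts. The 31977 transcripts shared by all tables were used. The strand setting and the transcript build are not given in the sources used here.

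Shares came from estimated counts, and CPM from the library total. Members had at least 2 transcripts, at least 10 CPM in all 14 libraries, a gap of at least 30 points and a total changed by less than 1.5-fold. Counts were rounded and tested with edgeR (version 4.0.16, R 4.3.3) after filterByExpr and TMM, with 4 libraries for DMH1 and 10 for the other comparisons. Differential usage was tested with diffSpliceDGE and totals with the quasi-likelihood test, adjusted by Benjamini-Hochberg and called below 0.05. The exact permutation test of 2 against 2 libraries cannot go below 0.333 (two-sided). Alternatives used limma (version 3.58.1), DESeq2 (version 1.42.0), other thresholds, TPM, other fits, the replicate number as a block and each library left out.

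Named were, per comparison, the 6 members with the largest gap, members in 2 comparisons, genes next to the limit, members called in a comparison that did not choose them, and 6 BMP pathway genes. The members and lists were chosen with earlier results of these data known.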

Additional observations from a re-analysis of the deposited data

Results flagged for a closer look

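For 7 switching transcripts both libraries of one treatment moved one way from its controls, and both libraries of another treatment the opposite way from theirs. The opposite move was listed only where its gap was at least 10 points. Moves in the same direction, and opposite moves among all genes entered, were not counted, so this is not shown to be particular to the members. In each case the difference between the 2 treatments was not tested. The values are differences of mean share in percentage points, treatment minus control, with 2 libraries in each group.

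OFUSG02634.3 had a difference of -39.9 in rActivin A and 40.8 in DMH1. OFUSG25090.2 had -15.3 in rActivin A and 39.7 in DMH1, and OFUSG09752.2 had -19.3 in rActivin A and 36.6 in DMH1. These 3 were chosen by DMH1. OFUSG09314.1 had the reverse, with -24.7 in DMH1 and 39.5 in rActivin A, which chose it. OFUSG19289.1 had -40.8 in rActivin A and 33.4 in SB431542, and its partner OFUSG19289.2 accordingly had 40.8 in rActivin A, -33.4 in SB431542 and -25.4 in DMH1. OFUSG26875.2 had -47.6 in SB431542 and 44.4 in rBMP4, which chose it.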

How the results depend on the processing

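The number of members moved with the rule. A minimum gap of 20 points gave 96 genes in all (6 for rBMP4, 50 for rActivin A, 35 for DMH1 and 14 for SB431542) and one of 40 points 11 (1, 8, 2 and 1). A minimum of 20 CPM gave 24 genes (13 for rActivin A, 6 for DMH1 and 4 for SB431542), and one of 5 CPM gave 17 for DMH1. Shares from TPM gave 41 genes, 39 of them shared with the 42, and TMM scaling 42, of which 41 were shared. Leaving out each library in turn gave 44 to 121 genes in all (3 to 8 for rBMP4, 24 to 109 for rActivin A, 11 to 30 for DMH1, 7 to 18 for SB431542), the highest without rActivin A replicate 1. Of the 42 genes, 38 stayed in every one of these sets. A gap can only stay or widen when a library is left out, so a member could leave only through the limit on the total. The 38 are therefore no measure of how stable the shares were.

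Transcript usage calls over all genes moved with the tool, the libraries and the fit. For rBMP4, rActivin A, DMH1 and SB431542 edgeR called 0, 43, 28 and 3 transcripts, and limma voom 15, 690, 97 and 27. DMH1 gave 15 without a filter on low counts, and SB431542 gave 29 in a fit without the rActivin A libraries, an alternative chosen after seeing the data. Leaving out a library gave 0 to 1, 18 to 231, 0 to 18 and 2 to 4. Gene totals gave 540, 8357, 2665 and 279 genes. A fit of all 14 libraries gave 343 for rBMP4, 5387 for DMH1 and 142 for SB431542, no filter gave 447 for SB431542, and leaving out a library gave 303 to 360, 5594 to 8195, 11 to 7599 and 124 to 219. With the replicate number as a block, usage calls were 0 for DMH1 and 5 for SB431542 and totals 1683 for DMH1. The libraries share only a number: same-numbered libraries deviated together with a correlation of 0.0122 to 0.0766.

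The called changes of members in comparisons that did not choose them kept their direction under every alternative, though not every call held. For the other results a reversal was mostly not possible. A count of genes or transcripts has no direction, and a gap cannot reverse when a library is left out. Depth limits the shares of weakly expressed members, and 2 libraries per group limit every comparison. How Kallisto divided reads between near-identical transcripts could not be examined without the reads.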
